A study of Mus musculus with 4 samples.

Results

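Genes of the Iroquois (Irx), Six- and Eya-families encode developmental regulators of mesoderm, kidney, muscle and sense organs, and 9 of them were followed here in a pair of mouse stromal cell lines. The members are Irx1, Irx2, Irx3, Irx5, Six2, Six4, Eya1, Eya2 and Eya4, taken by family membership and not by their values. Every probe set that the array annotation assigned to a single one of these genes was used, which gave 17 probe sets for 9 genes, of 45037 probe sets and 18193 genes on the arrays. OP9M2, described in the labels as a supportive mesenchymal stem cell line, is a single clone derived from OP9 stroma and was grown in medium with 20% fetal bovine serum. BFC012, described as a non-supportive fibroblast line from fetal liver, was grown with 10% serum. Both lines received 2000 rad before plating at a density of 25000 cells per cm2, and total RNA was taken 48 hours later, so no group holds unirradiated cells. Each line had 2 arrays, labelled as biological replicates, and serum and line cannot be told apart. No source used here states that the replicates were separate cultures, so the spread between them may be partly technical.

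Iroquois proteins are homeodomain factors of the TALE class, set apart by a three-residue loop extension in the homeodomain, and in mammals their genes lie in clusters in which Irx3, Irx5 and Irx6 stand together and Irx1, Irx2 and Irx4 stand together. Proteins of the Six-family are homeodomain factors with a further conserved domain that binds Eya proteins. Eya proteins do not bind DNA themselves but act as co-activators of Six-family factors and carry a tyrosine phosphatase activity, and with Pax and Dach proteins they form a regulatory network known from eye, muscle, ear and kidney development.

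Irx2 and Irx3, the Iroquois genes that were higher in OP9M2, lie on different chromosomes, and their promoters are shown to let the pair be compared. The sequences are the 250 bases upstream of a RefSeq transcript start (assembly GRCm38.p6), 5′ to 3′ on the strand of the gene, with CpG dinucleotides in capitals. Irx2 is on the plus strand at chr13:72628570-72628819 and Irx3 on the minus strand at chr8:91801655-91801904.
Irx2: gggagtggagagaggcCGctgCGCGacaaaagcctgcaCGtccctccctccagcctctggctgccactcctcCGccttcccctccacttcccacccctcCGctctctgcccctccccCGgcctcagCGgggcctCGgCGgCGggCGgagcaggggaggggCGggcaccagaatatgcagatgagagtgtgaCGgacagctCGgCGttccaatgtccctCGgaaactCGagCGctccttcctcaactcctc
Irx3: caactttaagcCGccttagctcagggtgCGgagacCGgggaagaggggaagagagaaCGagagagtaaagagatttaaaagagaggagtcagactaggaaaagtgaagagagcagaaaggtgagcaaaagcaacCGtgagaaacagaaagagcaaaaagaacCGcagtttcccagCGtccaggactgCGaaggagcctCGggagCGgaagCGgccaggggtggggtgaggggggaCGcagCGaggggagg
The Irx2 stretch held 19 CpG dinucleotides and 68.4% G and C, and the Irx3 stretch 13 CpG and 56.0%, against medians of 6 CpG and 52.4% over 32851 mouse promoters of the same length. Searched on both strands were the TATA motif (TATAAA), the GC box of Sp1-like factors (GGGCGG), the CCAAT box by its own letters, the palindromic site of Iroquois proteins (ACANNTGT) and the MEF3 site bound by Six-family factors (TCAGGTTTC). Irx2 held 2 GC boxes and 1 CCAAT box, and Irx3 held none of the 5 motifs. Over all promoters 32.7% held a GC box, 33.9% a CCAAT box, 12.4% a TATA box, 6.31% the Iroquois site and 0.387% the MEF3 site.

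Promoter entries were found for 5 of the 9 members. The others were Six2, Six4 and Eya4, the last pair with 2 transcript starts each. The only MEF3 match among these entries was in Six4, on the opposite strand and 99 bases before 1 of its starts, and it is shown in capitals with 10 bases on each side.
Six4: tggcctggggGAAACCTGAtcggccagat
Six2 held 26 CpG dinucleotides, 2 GC boxes and 1 CCAAT box, and the 2 Eya4 entries held 35 and 25 CpG and 1 GC box each. No member held an Iroquois site or a TATA box in these windows. A match describes letters in a window and is not a measured binding site.

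Values are given in log2 units, read from the deposited intensities as described under the processing, and differences are OP9M2 minus BFC012 ± SE from limma. A probe set was called at a Benjamini-Hochberg adjusted p under 0.05 over all 45037 probe sets if its lines also differed by 1 log2 unit (2-fold) or more. A background level of 6.09 was set at the 95th percentile over 80 olfactory, vomeronasal and trace amine receptor probe sets. Where both arrays of 1 line lay at or below it, the fold is given as at least the brighter mean over this level. A gene with several probe sets stands by the one with the highest mean. Levels of different probe sets are not compared with each other.

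The 4 arrays were similar in overall level, with 49.5% to 50.3% of probe sets above background. The BFC012 arrays resembled each other more (Pearson r = 0.994 over the probe sets) than did the OP9M2 arrays (r = 0.980), and probe sets are not independent replicates. OP9M2 replicate 2 lacked signal of the poly-A spike-in dap (2.81, against 8.0 to 9.32 on the other arrays) and had the highest 18S ribosomal RNA signal (14.2 against 12.7 to 13.2). Differences of the called members are therefore also given for the 3 arrays with the spike-in. With a single OP9M2 array the spread of that fit came from the closer BFC012 pair alone, and calls rose from 810 to 2181 probe sets higher and from 1198 to 2256 lower, so no p is given for it. Of 8 mesenchymal markers, Col1a1, Col3a1, Vim, Pdgfra, Pdgfrb and Prrx1 were above background on all arrays. Their differences were, in this order, -0.63, 0.23, 0.42, 3.37, 2.18 and -0.07, and none was called. Col1a1, Vim, Pdgfra and Pdgfrb did not overlap between the lines (limma adjusted p = 0.278, 0.242, 0.0513 and 0.109). Col1a1 was lower in OP9M2 and the others higher, and 49.5% of all probe sets did not overlap. Thy1 was at or below background on every array, and Col1a2 lay at 14.2 and 14.1 in OP9M2 but at 6.18 and 6.07 in BFC012, so BFC012 lacked a clear signal of a defining fibroblast collagen chain on this probe set.

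Of the 9 genes, Irx2 and Irx3 were higher in OP9M2, Eya1 was lower, and 6 were not called. By probe set, 2 of 17 were called higher and 1 lower, against 1.80% called higher and 2.66% called lower over all probe sets. By gene the background was 2.36% higher and 3.56% lower. The median difference over the 9 genes was -0.019, against 0.032 over all genes. The values of the lines did not overlap in 8 of the 17 probe sets, and this was so for 49.5% of all probe sets. Among the 17, 8 were above background on every array and 6 on none.

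**Figure D1:**
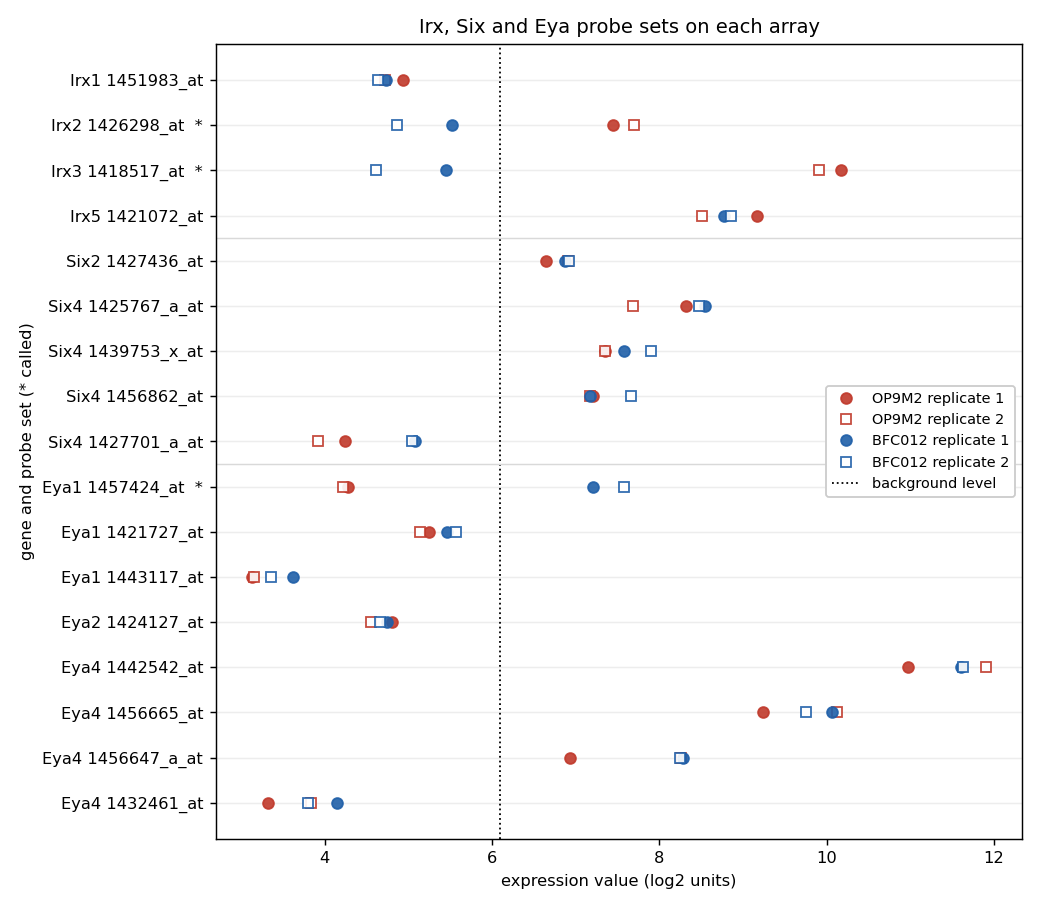
Value of each of the 17 probe sets of the 9 genes (rows) by array (horizontal axis in log2 units). OP9M2 is drawn in red and BFC012 in blue, with replicate 1 as a filled circle and replicate 2 as an open square, a dotted line stands at the background level of 6.09 and an asterisk marks the 3 called probe sets. Irx2 and Irx3 lie right of the line in OP9M2 alone, and 1 probe set of Eya1 in BFC012 alone.

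Irx3 was higher in OP9M2. It is a patterning factor of heart, limb and neural tube that is also studied in fat cell development. Its probe set read 10.17 and 9.91 on the OP9M2 arrays and 5.46 and 4.61 on the BFC012 arrays. Both OP9M2 values were above background and both BFC012 values below it, with no overlap. The difference was 5.01 ± 0.32 (95% confidence interval 4.16 to 5.86, limma adjusted p = 0.00490), at least 15.4-fold. On the 3 arrays with the spike-in it was 5.14.

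Irx2, which is expressed in limb, lung and neural tissue of the embryo, was also higher in OP9M2. It read 7.45 and 7.70 in OP9M2 and 5.52 and 4.86 in BFC012. OP9M2 was again above background on both arrays and BFC012 below it on both. The difference was 2.38 ± 0.27 (95% confidence interval 1.67 to 3.09, limma adjusted p = 0.0203), at least 2.79-fold, and 2.26 on the 3 arrays with the spike-in.

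Irx5 is the neighbour of Irx3 and shares roles with it in heart and skeletal patterning. Its values were 9.17 and 8.51 in OP9M2 and 8.77 and 8.86 in BFC012. All 4 were above background, and the BFC012 values fell between those of OP9M2. The difference of 0.02 ± 0.26 had a 95% confidence interval from -0.66 to 0.71 (limma adjusted p = 0.981). On the scale used here a change of 2-fold in either direction lay outside this interval. That does not hold for both directions if log2 of the deposited values is taken, which makes differences 1.44 times larger. The sign depended on single arrays, since without OP9M2 replicate 1 the difference was -0.31 and without BFC012 replicate 1 it was -0.018. Irx1, the neighbour of Irx2, was below background on all arrays, at 4.94 and 4.72 in OP9M2 and 4.73 and 4.64 in BFC012 (0.15 ± 0.15, limma adjusted p = 0.691). Each Iroquois cluster therefore held 1 called member beside a member with no called difference. Whether the differences of neighbours differed from each other was not tested, as each probe set was fitted on its own.

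The genes around the clusters were listed by position in the same assembly. On chromosome 8 the order is Fto, Irx3, Crnde, Irx5, Irx6 and Mmp2. Fto, which encodes an RNA demethylase and holds long-range enhancers of Irx3 in its introns, read 10.22 and 9.81 in OP9M2 and 10.27 and 10.42 in BFC012 (-0.33 ± 0.19, limma adjusted p = 0.461). Crnde, a long non-coding RNA between Irx3 and Irx5 that was chosen after its values were seen, read 7.75 and 7.40 in OP9M2 and 6.84 and 6.74 in BFC012. Its lines did not overlap, but the difference of 0.79 ± 0.18 was not called (limma adjusted p = 0.101). The lines did not overlap for Fto either, with OP9M2 below BFC012. Irx6 was below background on every array. Mmp2, the gelatinase gene that follows Irx6, read 13.05 and 12.20 in OP9M2 and 6.0 and 5.63 in BFC012, a difference of 6.81 ± 0.33 (limma adjusted p = 0.00278), at least 92.5-fold.

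On chromosome 13 the order is Ice1, Adamts16, Irx1, Irx2 and Irx4. Irx2 was the only 1 of these 5 genes to be called. Ice1 differed by 0.22 with no overlap between the lines. Adamts16 differed by 0.11 and Irx4 by -0.15, and Irx4 was below background on all arrays.

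**Figure D2:**
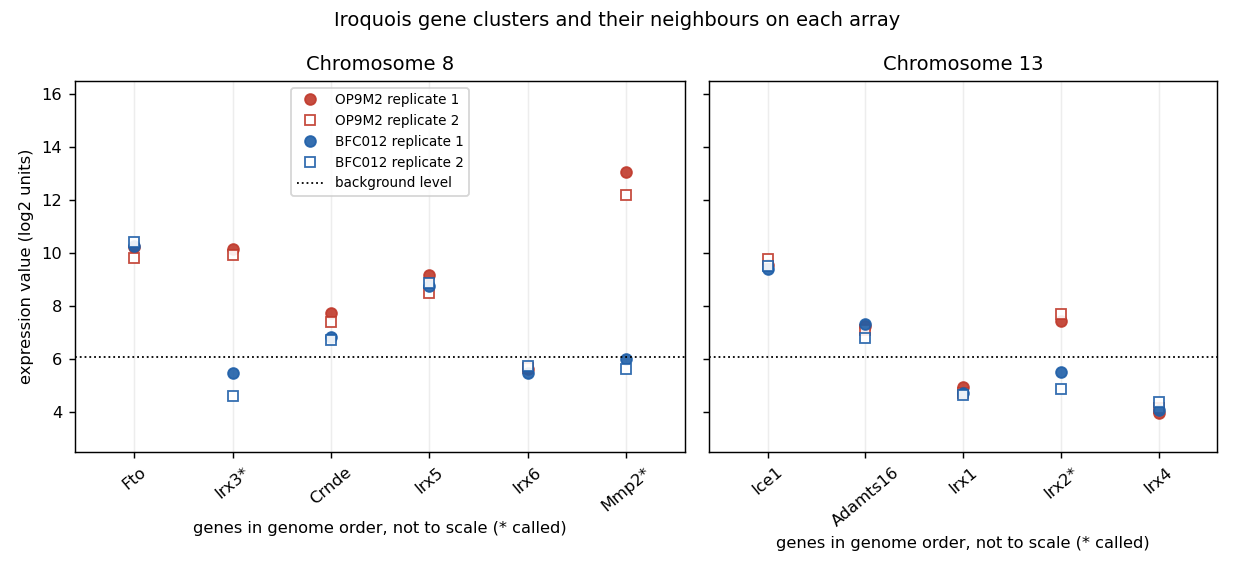
Values on each array (vertical axis, log2 units) of the measured genes of the 2 Iroquois clusters and their neighbours, in genome order and not to scale, with the dotted line at the background level and asterisks at called genes. Irx3 and Mmp2 on chromosome 8 and Irx2 on chromosome 13 separate the red OP9M2 from the blue BFC012 symbols most widely. Fto, Crnde and Ice1 also show no overlap, with smaller gaps and without a call. The symbols of Irx5, Irx6, Irx1 and Irx4 lie together.

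Neither of the Six-family members was called. Six2, known for keeping nephron progenitors undifferentiated, read 6.65 and 6.91 in OP9M2 and 6.87 and 6.92 in BFC012. These values lie a little above background and overlap between the lines (-0.11 ± 0.16, 95% confidence interval -0.53 to 0.30, limma adjusted p = 0.781). The sign turned without OP9M2 replicate 1 (0.017).

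Six4, a factor of muscle and gonad development, had 4 probe sets. The brightest read 8.32 and 7.68 in OP9M2 and 8.54 and 8.47 in BFC012, a difference of -0.50 ± 0.25 (95% confidence interval -1.17 to 0.16, limma adjusted p = 0.382). The others differed by -0.39, -0.23 and -0.98, so all 4 had values below 0, and none was called. OP9M2 lay below BFC012 with no overlap in 3 of the 4, and 49.5% of all probe sets had no overlap in one direction or the other. The probe set with -0.98 was the closest to the threshold (limma adjusted p = 0.0558), but it read 4.24 and 3.92 in OP9M2 and 5.08 and 5.04 in BFC012, all below background. It passed the call under quantile normalization (-1.02) and without OP9M2 replicate 1 (-1.14), where the BFC012 pair alone gives the spread.

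Eya1 was the member that was lower in OP9M2. It is a co-activator of Six-family factors, and its loss causes ear and kidney defects. The called probe set read 4.28 and 4.22 in OP9M2 and 7.21 and 7.58 in BFC012. The OP9M2 values were well below background and the BFC012 values above it. The difference was -3.15 ± 0.18 (95% confidence interval -3.62 to -2.67, limma adjusted p = 0.00382), at least 2.46-fold lower in OP9M2, and -3.12 on the 3 arrays with the spike-in. The other 2 probe sets of Eya1 did not show a called difference. One read 5.25 and 5.13 in OP9M2 and 5.46 and 5.57 in BFC012 (-0.33 ± 0.14, limma adjusted p = 0.313) and the other 3.14 and 3.16 against 3.62 and 3.37 (-0.34 ± 0.15, limma adjusted p = 0.332). Both lay below background on all arrays, with OP9M2 below BFC012 in each, so the call for Eya1 rests on 1 probe set.

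Eya2, a co-activator expressed in muscle progenitors and the ear, was below background on all arrays, at 4.81 and 4.55 in OP9M2 and 4.74 and 4.66 in BFC012 (-0.02 ± 0.16, limma adjusted p = 0.975). Eya4, which is mutated in hereditary deafness and heart disease, was by contrast well above background. Its brightest probe set read 10.97 and 11.90 in OP9M2 and 11.61 and 11.64 in BFC012. The BFC012 values lay between those of OP9M2, and the difference was -0.19 ± 0.34 (95% confidence interval -1.08 to 0.71, limma adjusted p = 0.845).

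The remaining 3 probe sets of Eya4 differed by -0.23, -0.66 and -0.39 and were not called. OP9M2 replicate 1 was the lowest of the 4 arrays on each of the 4 Eya4 probe sets, most clearly at 6.94 on a probe set that read 8.27 in OP9M2 replicate 2 and 8.29 and 8.25 in BFC012. The sign of the Eya4 difference turned without that array (0.28), and without OP9M2 replicate 2 it was -0.65. The probe set that read 6.94 differed by -1.33 without OP9M2 replicate 2, where the BFC012 pair alone gives the spread. Without OP9M2 replicate 1 it differed by -0.0015.

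**Figure D3:**
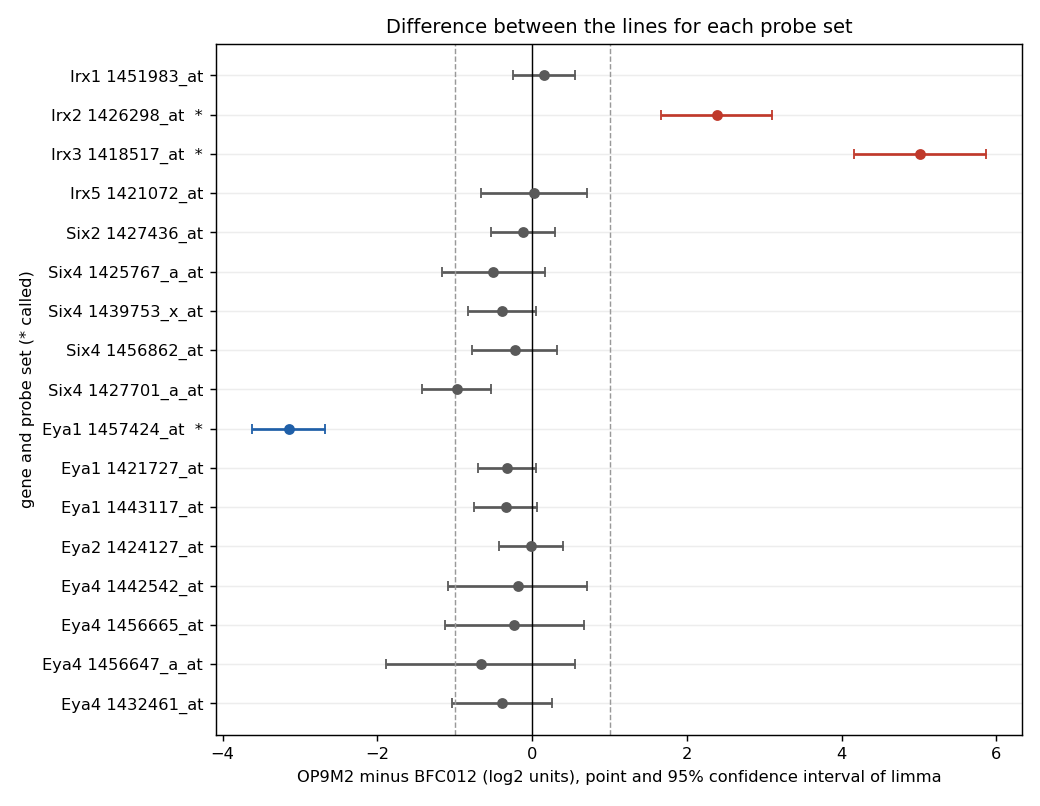
Difference between the lines (horizontal axis, OP9M2 minus BFC012 in log2 units) for each of the 17 probe sets (rows), with the limma 95% confidence interval as a bar and dashed lines at a 2-fold change in each direction. The bars of Irx2, Irx3 (red) and 1 probe set of Eya1 (blue) lie wholly outside the dashed lines, and every other bar reaches inside them.

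All 3 calls needed both BFC012 arrays. Without BFC012 replicate 1 the differences were 2.71 for Irx2, 5.43 for Irx3 and -3.33 for Eya1, and without BFC012 replicate 2 they were 2.05, 4.59 and -2.96. The directions held, but the limma adjusted p then lay between 0.0826 and 0.176. With either of these arrays left out limma called 0 probe sets on the whole array, while 4568 and 4517 probe sets had an unadjusted p under 0.05, and the lone BFC012 array was assumed to vary like the OP9M2 pair. The calls of the other genes named here were therefore lost too.

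None of 6 further genes of these families was called. Of these 6, Eya3 (8.39 and 8.82 in OP9M2, 8.63 and 8.51 in BFC012) and Six5 (7.87 and 6.60 against 7.01 and 6.85) were above background on all arrays. Their differences were 0.04 and 0.31, with overlap between the lines. Six3 lay next to the background level (6.29 and 6.15 against 6.02 and 5.92). Irx4, Irx6 and Six6 were below background on every array. The median difference of the 6 was 0.030.

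The Pax and Dach genes that act with Six- and Eya-family factors had 2 called members of 10 measured, and both were lower in OP9M2. Over all genes 2.36% were called higher and 3.56% lower, with a median difference of 0.032. These shares stand beside the counts of this list and of those that follow, and no list was tested as a set. Pax3, a regulator of muscle progenitors and neural crest, read 5.59 and 5.66 in OP9M2 and 7.21 and 7.23 in BFC012 (-1.59 ± 0.13, limma adjusted p = 0.00921), at least 2.18-fold lower. All 3 probe sets of Pax3 were called lower, the others by -2.56 and -1.37. Dach2, a co-factor of Eya proteins, read 4.57 and 4.52 in OP9M2 and 5.52 and 5.96 in BFC012, all below background (-1.19 ± 0.19, limma adjusted p = 0.0498). A second probe set of Dach2 differed by -0.21 and was not called, and the call of Dach2 was lost in 10 of 12 alternatives, among them leaving out any 1 array. Pax9 read 7.05 and 7.45 in OP9M2 and 6.48 and 6.50 in BFC012 without a call (0.76 ± 0.19, limma adjusted p = 0.120), while another of its 3 probe sets, below background on every array, was called higher (2.14, limma adjusted p = 0.0177) and the last differed by 0.92 without a call. The median of the 10 genes was -0.015.

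Other TALE homeobox genes, the class to which the Iroquois genes belong, moved in both directions. Of 11 measured, 1 was higher, 3 were lower and 7 were not called, with a median of 0.19. Meis2, a co-factor of Hox proteins, read 11.71 and 11.36 in OP9M2 and 10.01 and 10.00 in BFC012 (1.53 ± 0.17, 2.89-fold, limma adjusted p = 0.0203), and 3 of its 4 probe sets were called higher. Pbx3, also a Hox co-factor, read 9.54 and 8.92 against 10.89 and 11.35 (-1.89 ± 0.29, 3.71-fold lower, limma adjusted p = 0.0438). Its second probe set did not pass (-1.69, limma adjusted p = 0.0581). Pbx4 read 5.59 on both OP9M2 arrays and 7.17 and 7.45 in BFC012 (-1.72 ± 0.16, at least 2.32-fold lower, limma adjusted p = 0.0124). A second probe set of Pbx4 differed by -0.95 without a call (limma adjusted p = 0.0961). The repressor Tgif2 read 7.18 and 6.91 against 8.80 and 8.57 (-1.64 ± 0.17, 3.12-fold lower, limma adjusted p = 0.0173), with both probe sets called.

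**Figure D4:**
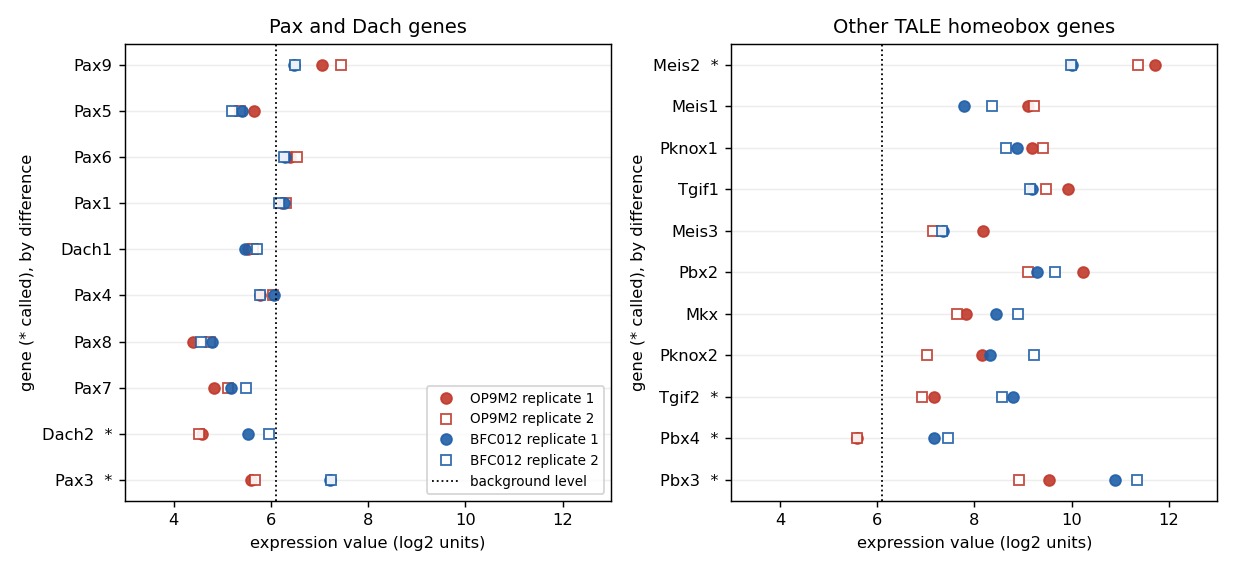
Values on each array (horizontal axis, log2 units) of the 10 measured Pax and Dach genes (left) and the 11 other TALE homeobox genes (right), ordered by the difference between the lines, with the dotted line at the background level and asterisks at called genes. Pax3 and Dach2 stand at the bottom left with OP9M2 below BFC012, and among the TALE genes Meis2 lies at the top and Tgif2, Pbx4 and Pbx3 at the bottom.

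Genes known downstream of Six- and Eya-family factors gave 2 called of 9, both lower in OP9M2. Slc12a2, the sodium-potassium-chloride cotransporter, read 10.20 and 10.39 in OP9M2 and 11.63 and 11.97 in BFC012 (-1.51 ± 0.18, 2.84-fold lower, limma adjusted p = 0.0247). Wnt4, a ligand of kidney and gonad development, read 6.32 and 6.73 against 8.90 and 9.74 (-2.79 ± 0.34, 6.94-fold lower, limma adjusted p = 0.0240). The remaining probe sets of both genes had differences below 0 and were not called. The muscle regulator Myog was below background on all arrays, and the list median was -0.18.

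Genes known downstream of Irx factors or as their partners gave 1 called of 7, with a median of -0.062. Trps1, a GATA-type repressor that binds Irx proteins, read 11.58 and 11.31 in OP9M2 and 10.25 and 10.22 in BFC012 (1.21 ± 0.16, 2.32-fold, limma adjusted p = 0.0286). Its other 3 probe sets were not called, while the mean over all 4 was called higher (1.07, limma adjusted p = 0.0235). The chemokine Cxcl12 (-0.89, limma adjusted p = 0.104) and the gap junction gene Gja1 (-0.57, limma adjusted p = 0.102) were abundant in both lines and not called.

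Six2 and Eya1 are known together from the nephron progenitor, and 2 of 8 measured genes of that cell type were called, both lower in OP9M2. Wt1, a zinc finger factor of kidney and mesothelium, read 5.13 and 4.55 in OP9M2 and 8.63 and 8.60 in BFC012 (-3.77 ± 0.23, limma adjusted p = 0.00435), at least 5.74-fold lower. Hoxa11 read 5.01 and 5.60 against 8.70 and 8.61 (-3.35 ± 0.24, limma adjusted p = 0.00638), at least 5.90-fold lower. The progenitor genes Cited1, Sall1, Hoxd11 and Meox1 were below background on every array. Osr1, an early kidney mesoderm factor, was above background on all arrays at 10.44 and 11.15 in OP9M2 and 10.04 and 10.60 in BFC012 (0.48, limma adjusted p = 0.528). Gdnf was above background on 1 OP9M2 array only, at 4.63 and 6.55 against 4.38 and 4.48 (1.16, limma adjusted p = 0.441). The median of the 8 was -0.035.

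Of the markers of other cell types, Cdh1 and Erbb3 were called lower in OP9M2, as were Eya1 and Pax3, and the other members of their lists were not called. Of 4 epithelial markers Cdh1 alone was called, at 3.50 and 3.39 in OP9M2 and 7.71 and 8.30 in BFC012. Epcam was above background on all arrays, at 10.32 and 9.20 against 8.73 and 8.90 (0.94, limma adjusted p = 0.307), and the log2 of the summed level of the list ranged from 9.44 to 10.4 in OP9M2 and from 9.52 to 9.86 in BFC012. Of 3 measured neural crest and glial markers Erbb3 alone was called, at 5.54 and 4.55 against 11.43 and 11.83, and its second probe set, below background, was not called (-0.28, limma adjusted p = 0.368). The log2 summed level of the list was 7.43 and 7.49 in OP9M2 and 11.5 and 11.9 in BFC012, where it rested mostly on Erbb3. Sox10 was above background on all arrays and differed by 0.30 without a call. Sox2 was below background on all arrays. Of 6 skeletal muscle markers none was called, and Myod1, Myf5, Myog, Pax7 and Myh3 were below background on all arrays. None of the 12 blood, hepatocyte and endothelial markers was called by the probe set that stands for it, while another probe set of Afp, below background on all arrays, was called lower (-2.25, limma adjusted p = 0.0130). The part of other cell types in the Eya1 and Pax3 differences was not tested, and fewer cells of a type and less RNA per cell cannot be told apart in such bulk samples.

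Among the measured protein-coding neighbours of all 9 members, up to 2 on each side, 2 of 21 were higher in OP9M2 and 1 was lower, with a median of 0.021. Beside Mmp2, both others flank Eya4, itself not called. Slc18b1, a polyamine transporter, read 10.36 and 9.93 in OP9M2 and 8.89 and 8.80 in BFC012 (1.30 ± 0.19, 2.46-fold, limma adjusted p = 0.0414). Tcf21, a factor of mesenchymal progenitors of kidney, heart and lung, read 3.87 and 4.13 in OP9M2 and 8.81 and 9.91 in BFC012 (-5.36 ± 0.40, limma adjusted p = 0.00726), at least 9.61-fold lower, while its second probe set lay below background and differed by 0.02. The neighbours of Eya1, with Lactb2 at 0.92 and Msc at 0.25, were not called.

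The genes whose pattern over the 4 arrays was closest to that of Irx3 and of Eya1 were listed by the Euclidean distance of values centred on each gene's mean. For Irx3 these were Tshz3 (distance 0.442, difference 4.87), Zfp560 (0.536, 5.33) and Rgs2 (0.599, 4.75). For Eya1 they were Ahnak2 (0.0782, -3.12), Hes1 (0.0859, -3.21) and Nol4l (0.128, -3.23). Tshz3 and Zfp560 encode zinc finger proteins, Rgs2 a regulator of G protein signalling and Hes1 a Notch target. The distance mostly reflects the size of the difference between the lines, as the points are 4 arrays of 2 lines.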

How the data were processed

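Total RNA of 2 OP9M2 and 2 BFC012 samples was hybridized to Affymetrix mouse arrays. The authors deposited intensities for each probe set on each array and named RMA and the affy package, with versions not given in the sources used here. These intensities reached 2958707, above the scanner maximum of 65535, while their natural logarithms lay between 2.06 and 14.9, the usual span of RMA log2 values. The natural logarithm was therefore read as log2. The base was not stated by the authors, and if log2 were taken instead, every difference is 1.44 times larger. The fixed design had assumed linear values.

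After 64 array controls were left out, 45037 probe sets were fitted in R 4.3.3 by limma 3.58.1 (lmFit, eBayes; 2 residual and 2.50 prior degrees of freedom, two-sided) and adjusted by Benjamini-Hochberg. The annotation named 1 gene for 34945 probe sets, several for 932 and none for 9160. The fit was tested on simulated data. The members and lists were chosen with earlier results of these data known. Named were all members, all other family genes, called genes of the 7 lists and 7 marker lists, called neighbours, and the 3 nearest genes by distance; other genes are named as examples chosen after their values were seen. The number of arrays limits the precision. Alternatives were another scale, a background filter, quantile normalization, median centring, an intensity trend with a robust prior, array weights, a replicate block, each array left out, the mean over a gene's probe sets, the adjusted p alone, and a block with crossed numbers, added after seeing the data. Promoters came from RefSeq (GRCm38.p6).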

Additional observations from a re-analysis of the deposited data

How the results depend on the processing

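The directions of Irx2, Irx3 and Eya1 held under every alternative run. Irx3 was called in 11 of 13 (4.59 to 7.23, limma adjusted p 0.00284 to 0.0929), Irx2 in 10 of 13 (2.05 to 3.44, 0.0135 to 0.176) and Eya1 in 10 of 12 (-4.54 to -1.27, 0.00180 to 0.105), the lowest size of Eya1 being the mean over its 3 probe sets. Leaving out 1 array gave 2.05 to 2.71 for Irx2, 4.59 to 5.43 for Irx3 and -3.33 to -2.96 for Eya1, and all 3 calls were lost without BFC012 replicate 1 or without BFC012 replicate 2. No source used here states whether the replicate numbers pair the arrays. The deviations within the 2 lines by these numbers had a correlation of -0.10 over the probe sets, which cannot decide it. With the replicate numbers as a block, Irx2 was not called (2.38, limma adjusted p = 0.0898), so 1 member was higher by gene and by probe set. The calls in the Pax and Dach, TALE, Six-Eya downstream and Irx downstream lists were then 0, 0, 1 and 0. With crossed numbers, a pairing chosen after seeing the data, these were 1, 2, 0 and 0, and 585 probe sets were higher and 792 lower, against 245 and 462 with the block and 810 and 1198 without. With dim probe sets left out, Eya1 (mean below background) was not tested and 0 members were lower. Quantile normalization made 2 member probe sets lower, Six4 being added. The Pax and Dach list had 1 call under the background filter, quantile normalization, median centring and array weights. Averaging probe sets left 1 call in the Six-Eya downstream list. Leaving out 1 array gave 0 to 2 members higher, 0 to 1 lower by gene and 0 to 2 lower by probe set. The list calls then ranged from 0 to 1 (Pax and Dach), 0 to 4 (TALE), 0 to 4 (Six-Eya downstream), 0 to 2 (Irx downstream), 0 to 3 (nephron progenitor) and 0 to 4 (neighbours). Signs turned only for uncalled members with small differences. Leaving out 1 array gave -0.31 (without OP9M2 replicate 1) to 0.36 for Irx5, which was -0.018 without BFC012 replicate 1, and -0.25 to 0.017 (without OP9M2 replicate 1) for Six2. It gave -0.65 to 0.28 (without OP9M2 replicate 1) for Eya4, and for Eya2 -0.15 to 0.11 (without OP9M2 replicate 2), with 0.024 without BFC012 replicate 1. The causes were not tested.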
